A study of Arabidopsis thaliana with 12 samples.

Results

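A set of 36 Arabidopsis thaliana genes was close to silent in leaves of WT plants and of trb45 plants and was transcribed in leaves of clf29 plants. The members were chosen by their levels in CPM (a gene's count per 1000000 counts of its library). A gene entered when its mean was below 0.1 CPM in WT and in trb45 and at least 1 CPM in clf29. Of the 28775 genes in the table, 48 met these criteria. A list of 16 loci, mostly floral regulators and tapetum genes, was left out by the rule, and 12 of those met the criteria, which left 36 members. The levels in WT, trb45 and clf29 therefore describe how the set was made and are not findings. The trb45 clf29 libraries were not used in the choice, and the question asked here is which of the 36 genes were still transcribed in them.

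The libraries were polyA RNA from mature leaves harvested at day 21 from untreated plants. All were grown on soil in long days (16 h light and 8 h dark at 23 °C), with 2 days of stratification at 4 °C. The 4 groups of 3 libraries were trb45 clf29 plants, which carried the trb45 mutations in TRB4 and TRB5 together with clf29, then clf29 plants, trb45 plants of the line named trb45-1, and WT plants of the accession Col-0. The trb45 mutations came from 1 line, and the 6 libraries of trb45 clf29 and clf29 shared the clf29 mutation. Total counts ran from 45519206 to 54215882 per library. CLF had 0.0931 to 0.187 CPM in trb45 clf29 and 0 to 0.203 CPM in clf29, against 12.7 to 16.1 CPM in trb45 and 10.9 to 13.1 CPM in WT. TRB4 had 1.15 to 1.27 CPM in trb45 clf29 and 1.36 to 3.25 CPM in trb45, against 3.80 to 4.50 CPM in clf29 and 4.90 to 6.59 CPM in WT. TRB5 had 1.04 to 1.66 CPM in trb45 clf29 and 1.80 to 4.64 CPM in trb45, against 15.2 to 19.4 CPM in clf29 and 16.7 to 19.4 CPM in WT. The labels do not say whether libraries of a group came from separate plants, so p-values measure the spread between these libraries. The summed level of 5 leaf marker genes was 95462 to 108008 CPM over the 12 libraries.

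CLF is a catalytic subunit of Polycomb repressive complex 2 (PRC2), which places trimethylation on lysine 27 of histone H3. In leaves this mark lies over many genes that belong to flowers, fruits and seeds, and clf mutants transcribe some of them outside those organs. TRB proteins bind telomere repeats and the related short telobox motif near some gene starts, and members of the family can recruit PRC2.

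In trb45 clf29 the set was split by level with the same limits as in the choice. By these limits 10 members were on (mean of at least 1 CPM), 12 were intermediate and 14 were off (mean below 0.1 CPM). Of the 14 off members, 12 had no count in trb45 clf29. The classes are cuts on CPM and do not measure change from clf29. The intermediate member TH7 kept 75.8% of its clf29 level, and the on member AT3G19550 kept 64.4%. Of the 16179 genes with a mean of at least 1 CPM in clf29, 97.8% were on in trb45 clf29 and 0.155%, or 25 genes, were off. Of the 7618 genes within the members' range of clf29 levels, 95.4% were on and 0.328% were off. These shares cover genes of any level in WT and trb45, whereas the members had to be low in both. The 14 off members are themselves among the 25 genes. The shares are therefore a description and no matched comparison. The on members included STK and TCP12, regulators of ovule and bud development, and LTP4, a lipid transfer protein. The off members included ATA1, named TAPETUM 1 for the cell layer that feeds developing pollen, and ABCG26, a transporter needed for the pollen wall. All 36 members were matched to RefSeq TAIR10.1 by locus code and all are protein coding.

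Within clf29 the members were weakly transcribed, with means between 1.01 and 11.1 CPM and a median of 1.57 CPM, and 26 of the 36 were below 2 CPM. Per kilobase of exon the clf29 levels ran from 0.243 to 7.22 CPM with a median of 1.26. In trb45 clf29 the median of the members' means was 0.280 CPM. In WT 18 members had no count in any of the 3 libraries, and 6 members had none in the 6 libraries of WT and trb45. The highest count of a member in any of these 6 libraries was 11 counts, for AT4G16270 in a trb45 library. Near the limits, TCP12 was the member closest to the WT limit at 0.0926 CPM, and AT5G51950 and CKX3 lay outside at 0.148 CPM each. For trb45 AT4G16270 lay inside at 0.0948 CPM and CYP706A3 outside at 0.126 CPM. For clf29 AT2G42885 lay inside at 1.01 CPM and CSLG2 outside at 0.974 CPM.

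The edgeR quasi-likelihood test with Benjamini-Hochberg adjustment over 19138 genes compared trb45 clf29 with clf29 and could test 35 of the 36 members. It called 22 members lower in trb45 clf29, against 14.2% of all genes tested. It called 1 member higher, LTP4, against 17.2% of all genes tested, and gave no call for 12. The median log2 fold change was -2.40 over the 35 tested members and 0.02 over all genes tested. The clf29 libraries set the choice of members by their high values, which favours lower values in any group set against them, so these counts describe the set. By libraries, 28 members had all 3 trb45 clf29 values below all 3 clf29 values, 2 had them all above, and 6 overlapped. Among the 16179 genes with at least 1 CPM in clf29, 27.9% lay below and 21.4% above in the same way, 49.3% in either direction.

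Against the groups in which the members were near silent, the same edgeR fit called 20 members higher in trb45 clf29 than in trb45, with 15.8% of all genes tested called so. It called 21 members higher in trb45 clf29 than in WT, with 25.9% of all genes tested. Low values in trb45 and WT were part of the choice, so these counts too are read as description. For 21 members every trb45 clf29 library was above every trb45 and WT library. The share of all genes with this order was not computed, so this count too is only a description. All 10 on members were called higher in both comparisons. No member was called lower by edgeR in trb45 clf29 than in WT (0 at an unadjusted p under 0.05, and 0 with DESeq2), against 22.6% of all genes tested. None was called lower by edgeR than in trb45, against 14.7% of all genes tested. AT3G23770 and ABCG26 passed an unadjusted p under 0.05 there, and DESeq2 called these 2 lower, with adjusted p of 0.0320 and 0.0247. The difference between the trb45 effect with and without clf29 was not tested for the members, because trb45 and WT both lay at or near the limit of detection.

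**Figure D1:**
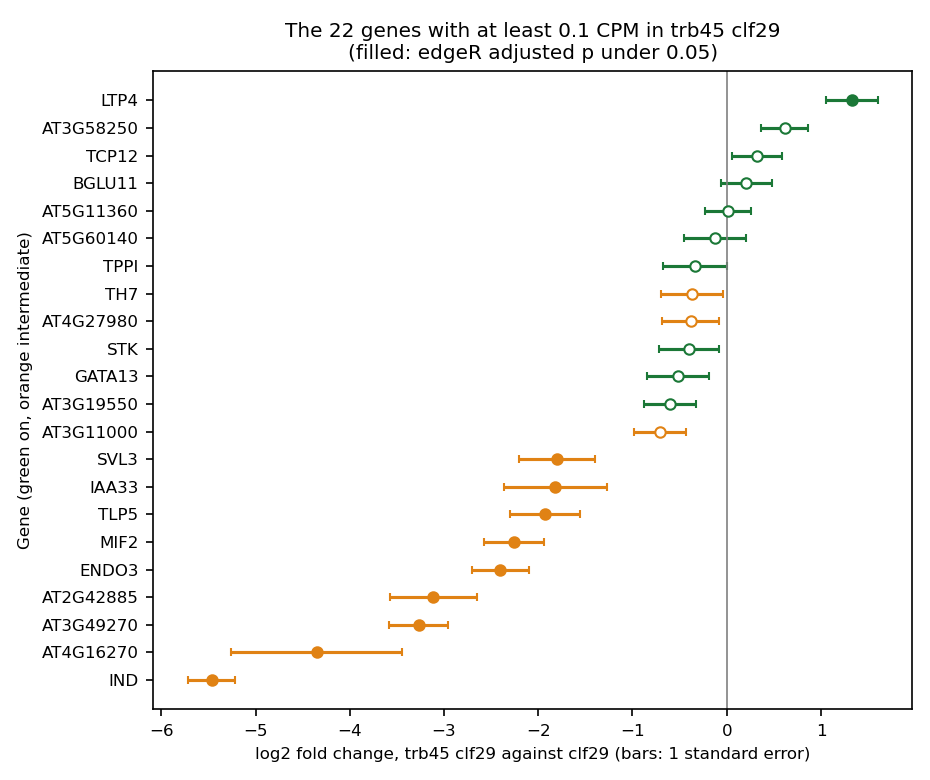
Log2 fold change of trb45 clf29 against clf29 (x axis, points with bars of 1 standard error, edgeR) for the 22 members with at least 0.1 CPM in trb45 clf29, in green where on and orange where intermediate. Filled points passed an adjusted p of 0.05, namely LTP4 at 1.33 and 9 intermediate members down to IND at -5.47.

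Among the regulators of transcription and development, 4 of 8 were on in trb45 clf29, 4 were intermediate and none was off; this grouping by role was made after the values had been seen. The edgeR test called 4 of the 8 lower in trb45 clf29 than in clf29, against 14.2% of all genes tested. It made no call for the other 4. IND (AT4G00120), a bHLH factor that specifies the valve margin where the fruit opens, was the highest member in clf29 and was called lower in trb45 clf29. It had 0.35, 0.19 and 0.19 CPM in trb45 clf29 replicates 1, 2 and the unnumbered library, against 11.9, 10.1 and 11.3 CPM in clf29 replicates 1, 2 and 3. It had no count in the 3 trb45 libraries and 2 counts in 1 WT library. The groups were far apart, with a log2 fold change of trb45 clf29 over clf29 of -5.47 (SE 0.25, edgeR adjusted p = 4.51e-09), and 2.19% of the clf29 level remained. Each trb45 clf29 library was above every trb45 and WT library, whose low values were part of the choice.

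STK (AT4G09960), a MADS-box factor of ovule identity, is the other carpel gene among the members and kept 74.3% of its clf29 level. STK had 1.08, 1.40 and 1.64 CPM in trb45 clf29, against 1.93, 1.89 and 1.73 CPM in clf29, 0 to 0.110 CPM in trb45 and 0 to 0.0371 CPM in WT. All 3 trb45 clf29 values were below the clf29 values, but the log2 fold change of -0.40 (SE 0.32) gave no call (edgeR adjusted p = 0.367). Over the 10 genes of the carpel and ovule list, of which STK and IND are members and SHP1 and SHP2 were left out by the rule, 6 genes being neither, the summed level was 3.63 to 4.61 CPM in trb45 clf29, 15.9 to 18.5 CPM in clf29, 0.277 to 0.444 CPM in trb45 and 0.167 to 0.241 CPM in WT. Without the members and the left-out loci the sum over the 6 other genes was 0 to 0.0746 CPM in trb45 clf29, 0.630, 0.0370 and 0.369 CPM in clf29 replicates 1, 2 and 3, 0.240 to 0.264 CPM in trb45 and 0.0742 to 0.167 CPM in WT, with clf29 replicate 2 below every trb45 library. In bulk leaf samples fewer cells of a type and less RNA per cell cannot be told apart.

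TCP12 (AT1G68800), also known as BRANCHED2, a TCP factor that restrains axillary bud outgrowth, had 1.27, 1.29 and 1.16 CPM in trb45 clf29, against 1.19, 0.93 and 0.92 CPM in clf29. The ranges overlapped, and the log2 fold change was 0.32 (SE 0.27, edgeR adjusted p = 0.386). GATA13 (AT2G28340), a zinc finger factor of the GATA family, had 1.32, 1.01 and 0.78 CPM in trb45 clf29, against 1.48, 1.50 and 1.57 CPM in clf29. Its values in trb45 clf29 were all lower, with a log2 fold change of -0.51 (SE 0.33) and no call (edgeR adjusted p = 0.256). AT5G60140, annotated as an AP2/B3-like factor, had 0.93, 2.20 and 1.90 CPM in trb45 clf29, against 2.00, 1.46 and 2.14 CPM in clf29. Its trb45 clf29 libraries spread widely around the clf29 values and gave no call (log2 fold change -0.13, SE 0.33, edgeR adjusted p = 0.800).

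MIF2 (AT3G28917), a mini zinc finger protein, kept 20.4% of its clf29 level with little spread between libraries. It had 0.26, 0.30 and 0.26 CPM in trb45 clf29, against 1.33, 1.41 and 1.29 CPM in clf29, and no count in any trb45 or WT library. The log2 fold change was -2.26 (SE 0.32, edgeR adjusted p = 2.35e-04). TLP5 (AT1G43640), a tubby-like protein, kept 25.6% of its clf29 level, with 0.26, 0.37 and 0.22 CPM in trb45 clf29 against 0.85, 1.35 and 1.14 CPM in clf29 (log2 fold change -1.93, SE 0.37, edgeR adjusted p = 0.00196). IAA33 (AT5G57420), a member of the Aux/IAA family of auxin signalling, had 0.67, 0.22 and 0.11 CPM in trb45 clf29, against 1.09, 1.32 and 1.25 CPM in clf29. Its groups did not overlap but trb45 clf29 replicate 1 stood well above the other libraries of that group, and its adjusted p was the highest of the 22 lower calls (log2 fold change -1.82, SE 0.55, edgeR adjusted p = 0.0215). That call was lost without trb45 clf29 replicate 2 (edgeR adjusted p = 0.0752), the unnumbered library (0.0901), clf29 replicate 2 (0.0666) or clf29 replicate 3 (0.0642), and was kept without each of the other libraries. The ratio of clf29 over trb45 clf29 means for IAA33 was 3.64, and 7.27 without trb45 clf29 replicate 1.

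Of the 6 members in lipid, wax or lipid transport functions, again grouped after the values were seen, edgeR called 5 lower in trb45 clf29 than in clf29 and 1 higher. Over all genes tested, 14.2% were called lower and 17.2% higher. LTP4 (AT5G59310) was the exception among the 6 members. It had 3.95, 7.74 and 6.07 CPM in trb45 clf29, against 3.31, 1.80 and 2.103 CPM in clf29, 0 to 0.0370 CPM in trb45 and 0.0371 to 0.148 CPM in WT. Every trb45 clf29 library was above every clf29 library, and LTP4 reached 246% of its clf29 mean (log2 fold change 1.33, SE 0.27, edgeR adjusted p = 0.00154). Its close relative LTP3, which is no member, had 14.3, 29.5 and 22.2 CPM in trb45 clf29, against 20.6, 13.9 and 15.9 CPM in clf29, 0.222 to 0.330 CPM in trb45 and 0.0740 to 0.278 CPM in WT. LTP3 and LTP4 had the same order of libraries within each of the clf29-carrying groups. How reads shared by these paralogs were assigned is not given in the sources used here, so the level of LTP4 is uncertain to that extent.

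The other 5 lipid members were off in trb45 clf29, and 4 of them had no count in its 3 libraries. CYP96A15 (AT1G57750), the midchain alkane hydroxylase of cuticular wax synthesis, had no count in trb45 clf29, against 4.76, 0.52 and 2.01 CPM in clf29 replicates 1, 2 and 3. Against the floor of 3 counts per library, 0.0560 CPM in trb45 clf29, its mean was at least 43.4-fold lower in trb45 clf29 (edgeR adjusted p = 9.59e-05). ADS4 (AT1G06350), a fatty acid desaturase, had no count in trb45 clf29, against 1.98, 0.45 and 1.07 CPM in clf29, and was at least 20.8-fold lower in trb45 clf29 (edgeR adjusted p = 1.73e-04). In clf29 both genes were highest in replicate 1 and lowest in replicate 2, and without replicate 1 the bounds were 22.6-fold for CYP96A15 and 13.5-fold for ADS4.

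AT5G07230, which is listed as A9 among anther markers and is annotated in a lipid transfer protein superfamily, had no count in trb45 clf29 and 2.85, 0.57 and 2.36 CPM in clf29. It was at least 34.5-fold lower in trb45 clf29 than in clf29 (edgeR adjusted p = 5.26e-05), and 1 of the trb45 libraries had 6 counts of it. ABCG26 (AT3G13220) had no count in trb45 clf29 and 1.52, 0.59 and 1.38 CPM in clf29, at least 20.8-fold lower in trb45 clf29 (edgeR adjusted p = 2.64e-05). RXF26 (AT1G58430), annotated as a GDSL-like lipase, had 2 counts in trb45 clf29 replicate 1 and none in the other 2 libraries, against 5.13, 1.09 and 2.64 CPM in clf29. The ratio of clf29 over trb45 clf29 for RXF26 was 237, with a 95% interval from counting error alone of 65.4 to 1967 (edgeR adjusted p = 1.52e-05), and it was 150.02 without clf29 replicate 1. This ratio rests on the 2 counts of trb45 clf29 replicate 1, and without that library trb45 clf29 was at 0 and the floor gives a bound of at least 52.8-fold. The interval takes these 2 counts as independent and is too narrow if they came from a single read pair, which is not known. In each of these 3 genes the lowest clf29 library was above every trb45 clf29 library.

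Of the 10 members that encode cell wall or secreted proteins, also grouped after the values were seen, 0 were on in trb45 clf29, 4 were intermediate and 6 were off. The edgeR test called all 9 that could be tested lower than in clf29, against 14.2% of all genes tested. AT3G49270, an extensin-like protein of the cell wall, had 0.34, 0.22 and 0.54 CPM in trb45 clf29, against 3.11, 4.04 and 3.73 CPM in clf29. The values were far apart, and no count of it was found in trb45 or WT. It kept 10.1% of its clf29 level (log2 fold change -3.27, SE 0.31, edgeR adjusted p = 1.19e-05). AT2G42885, a defensin-like protein, kept 11.1%, with 0.15, 0.07 and 0.11 CPM in trb45 clf29 against 1.31, 0.74 and 0.98 CPM in clf29 (log2 fold change -3.12, SE 0.46, edgeR adjusted p = 1.77e-04). SVL3 (AT3G20520), related to the SHV3 cell wall proteins, kept 27.9%, with 0.26, 0.28 and 0.34 CPM in trb45 clf29 against 1.41, 1.15 and 0.59 CPM in clf29 (log2 fold change -1.80, SE 0.40, edgeR adjusted p = 0.00370).

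Both members of the peroxidase superfamily, AT1G44970 and AT4G16270, had ratios of 24.4 and 28.2 between the highest and the lowest clf29 library, the widest of the 36. AT1G44970 had no count in trb45 clf29, against 7.24, 0.30 and 3.58 CPM in clf29 replicates 1, 2 and 3, and was at least 66.2-fold lower in trb45 clf29 (edgeR adjusted p = 6.07e-04), or 34.6-fold without clf29 replicate 1. AT4G16270 had 0.11, 0.19 and 0.04 CPM in trb45 clf29, against 5.22, 0.19 and 1.79 CPM in clf29. Its clf29 replicate 2 lay within the trb45 clf29 range, so the groups overlapped although the call was lower (log2 fold change -4.35, SE 0.91, edgeR adjusted p = 0.00179). For AT4G16270 the ratio of clf29 over trb45 clf29 means was 21.4, falling to 8.82 without clf29 replicate 1 and reaching 32.2 without trb45 clf29 replicate 2. Its means were 0.112 CPM in trb45 clf29, 0.0948 CPM in trb45 and 0.0371 CPM in WT. It had no call in trb45 clf29 against trb45 or WT (edgeR adjusted p = 0.872 and 0.400).

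AT3G23770, a glycosyl hydrolase of family 17, differed from these 2 in its clf29 libraries and was lowest in replicate 1. It had no count in any trb45 clf29 library, against 1.15, 1.44 and 1.68 CPM in clf29 replicates 1, 2 and 3, at least 25.4-fold lower in trb45 clf29 (edgeR adjusted p = 2.22e-05). AT3G57620, annotated as glyoxal oxidase-related, had no count in trb45 clf29, against 3.04, 0.26 and 1.40 CPM in clf29 and no count in trb45 or WT. It was at least 28.0-fold lower in trb45 clf29, or 14.8-fold without clf29 replicate 1 (edgeR adjusted p = 0.00147 with all libraries), a call that DESeq2 did not make (adjusted p = 0.108). RHS14 (AT4G22080), named for its expression in root hairs, had no count in trb45 clf29 and 2.09, 0.69 and 1.03 CPM in clf29, at least 22.7-fold lower in trb45 clf29 (edgeR adjusted p = 1.04e-04). AT1G02813, a protein with a domain of unknown function, had no count in trb45 clf29 and 4.76, 0.85 and 2.79 CPM in clf29, at least 50.0-fold lower, or 32.5-fold without clf29 replicate 1 (edgeR adjusted p = 1.92e-05 with all libraries). The subtilisin-like AT1G20150 had no count in trb45 clf29 and 2.20, 0.15 and 1.48 CPM in clf29, at least 22.8-fold lower, or 14.5-fold without clf29 replicate 1. It was removed by the count filter of the edgeR fit and not tested there, while DESeq2 called it lower (adjusted p = 0.0473). In these 3 members, as in AT3G57620, clf29 replicate 1 was the highest library and replicate 2 the lowest.

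Of the 12 members with other functions or little annotation, 5 were on, 4 were intermediate and 3 were off in trb45 clf29. The edgeR test called 4 of them lower than in clf29, against 14.2% of all genes tested, and made no call for 8. BGLU11 (AT1G02850), a beta glucosidase, was the on member with the highest clf29 level and had 2.105, 3.34 and 3.49 CPM in trb45 clf29 against 2.91, 2.78 and 2.21 CPM in clf29. The groups overlapped (log2 fold change 0.21, SE 0.27, edgeR adjusted p = 0.599). AT3G58250, a TRAF-like protein, had 1.88, 1.66 and 1.51 CPM in trb45 clf29, against 1.04, 1.04 and 1.29 CPM in clf29, with none in trb45 or WT. All its trb45 clf29 values were the higher ones, but the log2 fold change of 0.62 (SE 0.25) missed the threshold (edgeR adjusted p = 0.0813).

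AT3G19550, annotated as a glutamate racemase, had 1.42, 1.44 and 1.59 CPM in trb45 clf29 against 2.61, 1.87 and 2.42 CPM in clf29, with a log2 fold change of -0.60 (SE 0.27) and no call (edgeR adjusted p = 0.109). TPPI (AT5G10100), a trehalose-6-phosphate phosphatase, had 1.38, 1.03 and 1.59 CPM in trb45 clf29 against 1.65, 1.80 and 1.70 CPM in clf29 (log2 fold change -0.33, SE 0.34, edgeR adjusted p = 0.488). AT5G11360 had 1.36, 1.47 and 1.81 CPM in trb45 clf29 against 1.67, 1.78 and 1.25 CPM in clf29 (log2 fold change 0.01, SE 0.24, edgeR adjusted p = 0.973). For the first 2 of these genes every trb45 clf29 library was below every clf29 library, and for AT5G11360 the groups overlapped.

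The reduced genes of this group were ENDO3 (AT4G21590) and the off members ATA1 (AT3G42960), AT1G76470 and PUP6. The annotation of ENDO3 names a putative endonuclease with no activity seen in vitro and notes activation by the floral factor AGAMOUS. ENDO3 had 0.26, 0.49 and 0.26 CPM in trb45 clf29, against 1.80, 1.72 and 1.94 CPM in clf29 (log2 fold change -2.40, SE 0.30, edgeR adjusted p = 4.09e-05). ATA1 had no count in trb45 clf29 and 2.56, 0.48 and 1.99 CPM in clf29, at least 30.0-fold lower in trb45 clf29 (edgeR adjusted p = 1.17e-04). PUP6 (AT4G18190), a purine permease, had none in trb45 clf29 and 3.02, 0.37 and 1.05 CPM in clf29, at least 26.4-fold lower (edgeR adjusted p = 4.00e-04), or 12.7-fold without clf29 replicate 1. The clf29 values of ENDO3 were close together, while those of ATA1 and PUP6 differed several-fold between libraries. AT1G76470, annotated with a Rossmann fold, had 2 counts in the unnumbered trb45 clf29 library, against 3.31, 0.44 and 1.51 CPM in clf29. Its ratio of clf29 over trb45 clf29 was 141 with a 95% counting interval of 38.8 to 1172 (edgeR adjusted p = 1.46e-04), and 78.5 without clf29 replicate 1. Its interval too takes the 2 counts as independent. Without the unnumbered library trb45 clf29 was at 0 for AT1G76470 and the bound was at least 31.4-fold. The intermediate members AT3G11000, AT4G27980 and TH7 (AT1G59730) kept 59.7%, 75.2% and 75.8% of their clf29 levels and had no call in edgeR's quasi-likelihood test, with adjusted p of 0.0646, 0.368 and 0.433.

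Most members that were off in trb45 clf29 also varied widely between the clf29 libraries. In 12 members at least 50% of the summed clf29 level lay in 1 library, which held for 0.266% of the 16179 genes with at least 1 CPM in clf29 and for 0.473% of the 7618 genes in the members' level range. In all 12 that library was clf29 replicate 1, followed by replicate 3 and then replicate 2. The 16179 and the 7618 genes include the members and could have any level in WT and trb45. Shares over them are therefore no matched comparison. Of these 12 uneven members 11 were off in trb45 clf29 and 1, AT4G16270, was intermediate. Of the 24 other members 10 were on, 11 were intermediate and 3, AT5G07230, ABCG26 and AT3G23770, were off. AT5G07230 lay just under the limit that makes a member uneven, with 49.3% of its clf29 level in replicate 1, and its ratio of 4.97 between the highest and the lowest clf29 library was wider than that of ADS4 (4.46) and RHS14 (3.05), which count as uneven. The same replicate order was found in 13 of the 14 off members and in 20 of all 36, against 26.2% of the 16179 genes and 23.4% of the 7618. By role, 6 of the 10 cell wall or secreted members were uneven, as were 3 of the 6 lipid members and 3 of the 12 with other functions. None of the 8 regulators was uneven, so role and unevenness cannot be told apart in the counts by role.

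Summed over the 12 uneven members, the level was 0.149, 0.187 and 0.0748 CPM in trb45 clf29, 45.3, 5.78 and 22.3 CPM in clf29 replicates 1, 2 and 3, 0.148 to 0.4996 CPM in trb45 and 0.130 to 0.259 CPM in WT. Summed over the other 24 members, the level was 21.4, 27.5 and 26.1 CPM in trb45 clf29 and 52.6, 44.3 and 48.2 CPM in clf29. The median uneven member had 3.18, 0.445 and 1.65 CPM in clf29 replicates 1, 2 and 3, so replicate 2 was far below the others for these genes. For the uneven members every trb45 clf29 sum was also below the sum of clf29 replicate 2. Without clf29 replicate 1 the rule itself would have chosen 24 genes, all among the 36, of which 9 were on and 7 off in trb45 clf29; of the 12 members lost, 7 were uneven ones. With at least 1 CPM required in every clf29 library it would have chosen 18, of which 9 were on and 2 off.

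**Figure D2:**
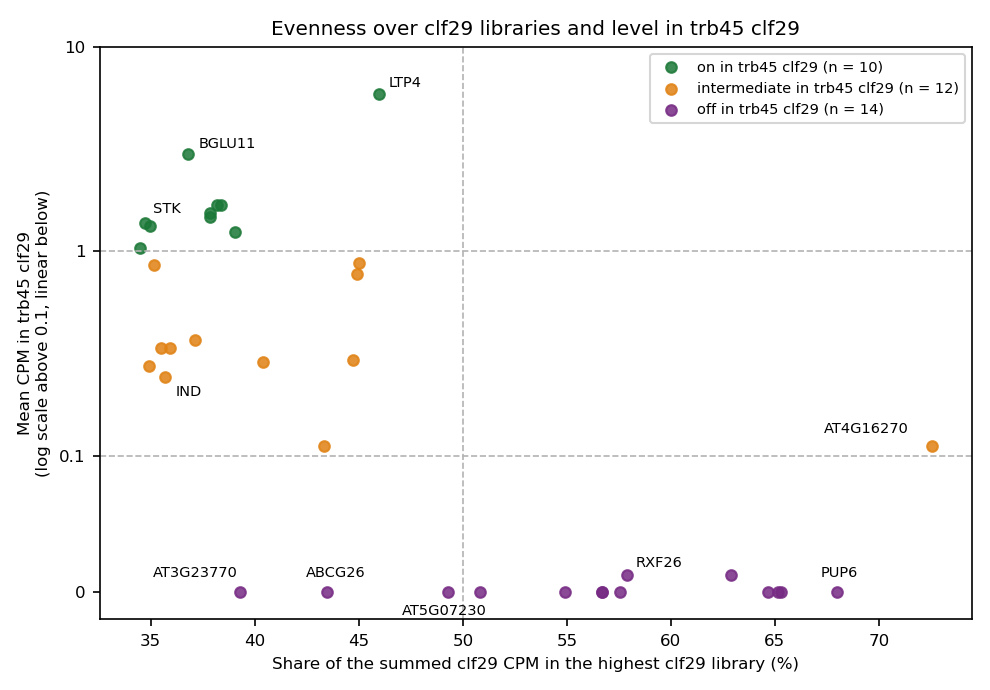
Share of the summed clf29 level held by the highest clf29 library (x axis, percent) against the mean CPM in trb45 clf29 (y axis, log scale above 0.1 and linear below) for the 36 members, coloured by class in trb45 clf29. The 12 members at 50% or more on the x axis lie below 0.1 CPM, except for AT4G16270 at 0.112 CPM, and AT3G23770 at 39.3% is the off member with the most even clf29 libraries.

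Other genes of anthers and of the tapetum were measured in the same libraries. Of the 20 genes in the anther and tapetum list, 2 are members (AT5G07230 and ABCG26) and 5 were left out by the rule. The summed level of the 13 others was 2.76, 4.14 and 3.19 CPM in trb45 clf29 and 21.9, 13.3 and 16.4 CPM in clf29 replicates 1, 2 and 3, 7.80, 4.31 and 6.31 CPM in trb45 replicates 1, 2 and 3 and 7.23, 4.73 and 6.17 CPM in WT replicates 1, 2 and 3. The trb45 clf29 sums lay below all others, and clf29, trb45 and WT shared the order of replicates 1, 3 and 2. Outside clf29 most of each sum came from LAP6, TKPR1 and LAP3, with WT means of 2.20, 1.93 and 1.83 CPM. Their trb45 clf29 means were 2.15, 0.684 and 0.417 CPM and their clf29 means 3.78, 2.22 and 3.19 CPM. In clf29 LAP3 had the replicate order 1, 3 and 2, LAP6 had 1, 2 and 3, and TKPR1 had 3, 1 and 2. Of the 20 genes, 15 had a mean of at least 0.1 CPM in clf29, and 12 of these had the order of replicates 1, 3 and 2, as the uneven members did. Among the 8 of these 15 that are neither members nor left out by the rule, 5 had that order. In trb45 clf29 11 of the 20 genes had no count in any library, and the sum of all 20 was 2.87 to 4.22 CPM there, against 21.1 to 44.7 CPM in clf29. GRP19 had no count in any of the 12 libraries, and DYT1, MYB80 and GRP17 were at 0 in most of them. No member stood in the lists for seed, pollen, petal and stamen identity, shoot meristem or root. The part that differing amounts of floral tissue among the leaf samples may have in these values was not tested.

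**Figure D3:**
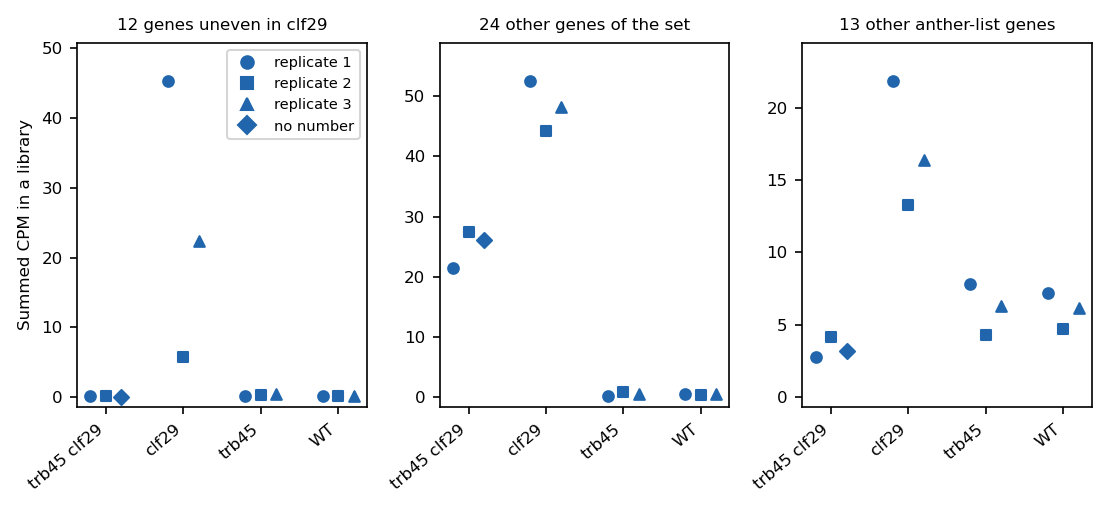
Summed level in each library (CPM, points) of the 12 members uneven in clf29, the 24 other members and the 13 anther list genes that are neither members nor left out, with the groups in the order trb45 clf29, clf29, trb45, WT. All 3 sums are highest in clf29 replicate 1 and lowest of that group in replicate 2. For the 24 other members the clf29 libraries differ little, with 52.6, 44.3 and 48.2 CPM in replicates 1, 2 and 3.

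The members showed few features in common beyond their levels. Their median exonic length was 1402.5 bases against 1580 bases for 26710 coding genes, they had a median of 2 introns as did all coding genes, and their GC content was 38.5% against 38.8%. Chromosomes 1 to 5 carried 11, 2, 10, 7 and 6 members. These were 30.6, 5.56, 27.8, 19.4 and 16.7% of the members, against 26.1, 15.6, 19.9, 15.2 and 23.2% of coding genes. None lay next to another member, and the single pair within 5 genes of each other was AT1G02813, off in trb45 clf29, and BGLU11, on in trb45 clf29. The words tapetum, anther, pollen, exine or male fertility stood in the annotation of 3 members (8.33%) and of 1.43% of coding genes. A gene on the opposite strand overlapped 9 members, and for STK, AT5G11360, AT3G57620, AT3G11000, AT1G20150 and ABCG26 that gene is in the table too, so reads of the pair cannot be told apart unless counting used strand, which is not given.

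The 250 bases before each annotated start were searched on both strands for the telobox, the motif that TRB proteins bind, and for motifs linked to Polycomb recruitment and MADS factors. The telobox AAACCCTA was found in 0 of 36 members and in 4.45% of coding genes, and its core AACCCTA, which every telobox contains, in 1 member and in 6.499% of coding genes. GAGAGAGA was found in 0 members and in 4.87% of coding genes. The CArG box, a MADS-factor motif, was found in 1 member and in 2.55% of coding genes. A match is a run of letters and no shown binding site, and no match says only that these letters are not in this window. The 2 matched windows, both of members off in trb45 clf29, are printed 5′ to 3′ on the gene's strand from RefSeq TAIR10.1, with the match in capitals. They are shown because they are the only members with any of the 4 motifs. AT1G20150, at chr1:6990363-6990612 on the minus strand, has the telobox core ending 115 bases before the start. RHS14, at chr4:11702786-11703035 on the minus strand, has a CArG box ending 218 bases before the start.
AT1G20150: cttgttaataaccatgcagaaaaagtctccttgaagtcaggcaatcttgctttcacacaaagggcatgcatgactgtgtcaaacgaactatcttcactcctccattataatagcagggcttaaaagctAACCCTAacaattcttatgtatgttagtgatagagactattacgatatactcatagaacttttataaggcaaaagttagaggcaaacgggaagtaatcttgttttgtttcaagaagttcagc
RHS14: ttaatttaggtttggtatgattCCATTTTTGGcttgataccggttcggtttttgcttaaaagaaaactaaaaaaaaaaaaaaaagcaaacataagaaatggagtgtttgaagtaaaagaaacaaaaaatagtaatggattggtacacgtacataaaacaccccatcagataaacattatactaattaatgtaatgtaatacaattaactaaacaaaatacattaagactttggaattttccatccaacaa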

How the data were processed

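The authors deposited raw counts per gene for 12 libraries, and the counts were used as deposited. Per the submitters' processing notes HISAT2, DESeq2 and the TAIR10 build were used, with roles and versions not given; the counter, the strand setting and the annotation are not given in the sources used here. Libraries were grouped by the genotype in their labels. The sample labels number the trb45 clf29 libraries 1, 2 and 3, but 1 of their count columns has no number. The library of that column is called unnumbered. The columns numbered 1 and 2 leave replicate 3 for it, which the column name does not state. Levels are CPM on the column sum, given for each library.

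Testing used edgeR 4.0.16, with limma 3.58.1, in R 4.3.3. Genes with too few reads were removed by filterByExpr (minimum count 10, minimum total 15), so 19138 genes entered the fit. After TMM scaling, 1 quasi-likelihood fit took the 4 groups of all 12 libraries together. The Benjamini-Hochberg adjustment ran over those 19138 genes, and an adjusted p under 0.05 was called. The code was tested on simulated data. Alternatives included DESeq2 1.42.0, other scalings and filters, a replicate block and each library left out.

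The floor was 3 counts per library. Intervals and the floor cover counting error only, since the labels name no molecular identifiers. They take counts as independent. Low counts of members in WT and trb45 were mostly even numbers, and whether both reads of a pair were counted is not given. If they were, the intervals are too narrow. Members and gene lists were chosen with earlier results of these data known. The role groups, the CArG box, the level range of the background genes and the share that makes a member uneven were chosen after values had been seen. Named members were, by rule, the 12 highest in clf29 and in trb45 clf29, the 8 lowest and 8 highest log2 fold changes past the threshold, those in marker lists or nearest a limit, and transcription factors; others were named after their values were seen. Gene names, products and sequence windows came from RefSeq TAIR10.1, whose release differs from that in the notes. TRB4 (AT1G17520) and TRB5 (AT1G72740) have no symbol there and were named from a list.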

Additional observations from a re-analysis of the deposited data

How the results depend on the processing

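The split of the set held under most settings, and the count of off members moved most. Leaving out a clf29 library also changed the set: members off in trb45 clf29 were 7 of 24 without clf29 replicate 1 and 19 of 41 without clf29 replicate 2 (7 genes gained, 2 lost), against 14 of 36, and 2 among the 18 members with at least 1 CPM in every clf29 library, a subset looked at after the data were seen. Members on ranged from 8, with 1 CPM required in every trb45 clf29 library, to 13, with a mean of 0.5 CPM. Over all settings of the fit, 21 to 24 members were called lower in trb45 clf29 than in clf29. Called higher were 2 when only the 6 libraries compared were fitted, against 1. Called lower than in trb45 were 2 with DESeq2 and 1 with the column sum alone, against 0, and 0 to 1 when each library was left out.

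Of 665 recomputed values of single members, 645 kept direction and side of the threshold, 7 lost a call, 4 gained one and 9 changed sign. The sign changed for AT5G60140, at -0.36 to 0.15 over the fits with a library left out, and for AT5G11360, at -0.12 to 0.13. For AT5G11360 the log2 fold change was also -0.0095 with RLE size factors and with DESeq2, -0.017 with the column sum alone and -0.00031 with the 6 libraries compared; the cause was not tested. AT3G11000, AT3G19550 and AT3G58250 gained a call with the 6 libraries compared, with edgeR adjusted p of 0.0396, 0.0205 and 0.0390.

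Same-numbered trb45 and WT libraries deviated together for replicates 1 and 2 (correlations 0.507 and 0.581), but the other pairs of the 15 had correlations of 0.1 or less, down to -0.389. The numbers were therefore not taken to pair the samples over the 4 groups. With the replicate number as a block, on the 11 numbered libraries, 21 members were called lower than clf29, AT4G16270 (edgeR adjusted p = 0.0514) and IAA33 (0.150) had no call, and AT5G11360 was at -0.23. Depth limits the off members: 3 counts in a trb45 clf29 library correspond to 0.0560 CPM.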
